A study of Homo sapiens with 8 samples.

Results

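The mitochondrial ribosomal proteins were followed in HEK293 cells that overexpressed an intronic transcript of the KLHL29 gene, either sense or antisense. HEK293 is a line of human embryonic kidney cells that carries adenovirus DNA. Members were all array features whose annotation gives a single gene with a symbol beginning MRPL or MRPS and a digit. They comprised 105 of 25094 features with values, in 78 of 13469 genes. Of the 78 genes, 76 encode proteins, while MRPL20-AS1 is a long noncoding RNA and MRPL42P5 a transcribed pseudogene. Another 3 member features lacked values, and each of their genes, MRPS35, MRPL50 and MRPL43, had another feature. MRPL42 was not analysed here. Each gene is given by its brightest feature, the one with the highest mean log2 intensity over all samples.

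Per the labels' protocols, both groups carried a linearised pBudCE4.1 vector with the insert and were selected with zeocin. The selected cells were kept as mixed populations, and the 4 samples per construct (n = 4 unless fewer are stated) were grown from separate frozen stocks of a single transfection. The p-values therefore measure the spread between thawed cultures of 1 pool each, and construct and pool cannot be told apart. Untransfected cells and cells with an empty vector were not analysed here. Differences are given as sense minus antisense on the log2 intensity scale. Samples 1 and 3 of each construct carried the dye Cy3 and samples 2 and 4 carried Cy5. The column medians were equal or nearly so within samples 1 and 2 and within samples 3 and 4 of each construct (579, 579, 590 and 590 in sense, 571, 571, 548 and 549 in antisense, in units of 1e+06). The sources used do not say whether such a pair shared an array. If it did, each construct would rest on 2 arrays and the printed SEs would be too small. With these pairs as a random block the adjusted p of MRPL38, MRPL35 and MRPS34, the genes with the smallest p, was 0.54 each, and the SE for MRPL38 was 0.142 in place of 0.123. Of 11 genes listed as typical of HEK293 cells, 10 were detected in both constructs, PAX2 being the exception. Among 14 leukocyte, endothelial, hepatocyte and fibroblast markers with values, 12 lay under the detection limits in both constructs.

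Mitochondrial ribosomes translate the few proteins that mitochondrial DNA encodes, which are core subunits of the respiratory chain and of ATP synthase. Their RNA comes from mitochondrial DNA, but all of their proteins are encoded in the nucleus, made in the cytosol and imported. The large subunit forms peptide bonds and the small subunit reads the message. Some of the proteins have bacterial counterparts and others exist only in mitochondria. Nuclear genes of mitochondrial gene expression are known targets of the transcription factors GABP, NRF1 and YY1.

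Promoters are shown first because their letters were not used to choose the members. RefSeq promoter windows of 300 bases (250 before and 50 after the gene start, GRCh38.p14) were found for 68 of the 76 genes. The ETS core CCGGAAG, the letters bound by GABP, stood on either strand in 29 of these 68 (42.6%). It stood in 17.9% of 10512 promoters of measured genes and in 14.2% of all 15843 protein-coding promoters. The YY1 letters AAGATGGCG stood in 12 of 68 (17.6%), against 3.72% of measured genes and 2.74% of all promoters. In 10 of those 12 they lay on the gene's own strand. At least 1 of the 2 motifs was present in 37 members, 4 held both and 31 held neither. The palindromic NRF1 motif stood in 8 of 68 (11.8%, against 10.8% and 8.58%). The E-box CACGTG, bound by MYC, stood in 6 (8.82%, against 10.0% and 8.88%). CCAAT stood in 20 (29.4%, against 37.2% and 36.4%) and the GC box GGGCGG in 42 (61.8%, against 67.0% and 58.5%). TATA boxes (TATAAA) stood in 2 (2.94%, against 6.89% and 9.63%). These shares were not tested. The ETS and YY1 letters can overlap at AAG. All motifs were searched on both strands, and a match shows letters, not a binding site.

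The 100 bases before the start are given for the 4 members with the smallest p in the comparison below that hold the ETS core there, and then for MRPS21 and MRPL49, which were not lower in sense. Capitals mark the ETS core on either strand (CTTCCGG is its reverse complement). The positions are chr16:1773135-1773234 (minus strand) for MRPS34, chr11:73787774-73787873 (plus) for MRPL48, chr17:75012570-75012669 (plus) for MRPL58, chr17:57850045-57850144 (minus) for MRPS23, chr1:150293761-150293860 (plus) for MRPS21 and chr11:65122083-65122182 (plus) for MRPL49.
MRPS34: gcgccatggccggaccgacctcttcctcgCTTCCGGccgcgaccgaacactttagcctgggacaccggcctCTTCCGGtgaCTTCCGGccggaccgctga
MRPL48: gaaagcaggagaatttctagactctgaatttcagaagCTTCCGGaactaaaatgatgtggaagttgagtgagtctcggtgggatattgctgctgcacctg
MRPL58: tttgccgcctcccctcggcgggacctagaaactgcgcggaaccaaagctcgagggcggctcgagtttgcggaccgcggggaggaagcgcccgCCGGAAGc
MRPS23: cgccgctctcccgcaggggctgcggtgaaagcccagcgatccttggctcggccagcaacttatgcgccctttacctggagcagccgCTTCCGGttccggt
MRPS21: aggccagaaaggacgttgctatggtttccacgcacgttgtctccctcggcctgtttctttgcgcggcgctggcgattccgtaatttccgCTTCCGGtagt
MRPL49: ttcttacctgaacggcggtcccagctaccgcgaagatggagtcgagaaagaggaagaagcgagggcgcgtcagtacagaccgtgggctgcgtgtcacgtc
The MRPS34 stretch holds 3 copies and the other ETS-bearing stretches 1 each. MRPL49 holds neither letters in these 100 bases.

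Most mitochondrial ribosomal protein genes had lower intensity in the sense samples, each by a small amount. Of the 76 genes, 70 had a negative difference (92.1%), against 56.7% of all genes. Their median difference was -0.29, which is 1.22-fold lower in sense, against -0.05 over all 13469 genes. The median SE of a member's difference was 0.15. The threshold was an adjusted p under 0.05 in limma, fitted to construct and dye and adjusted over all features. It was passed by 0 of 105 member features, against 0.0677% of all features in either direction and 0.0359% lower in sense. The smallest adjusted p of a member was 0.25. At an unadjusted p under 0.05, 32 member features were lower in sense (30.5%, against 7.5% of all features) and 1 was higher (against 6.65%). In either direction the share of all features was 14.2%. The total of 33 member features depended on single samples and on the scaling, as did the total of 3551 over all features. For members it was 15 without antisense 3, 18 without sense 3 and 21 without antisense 4, and 46 without sense 2. Over all features these fits gave 2164, 1871, 2644 and 6397. With quantile normalization it was 19 of 105 for members and 2826 of 25094 for all features, and with cyclic loess normalization 17 and 2855. Under both scalings the member count fell by a larger share than the count over all features, so members stood nearer to all features. Arrays of a mixed population cannot tell less RNA per cell from fewer cells that make it.

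**Figure D1:**
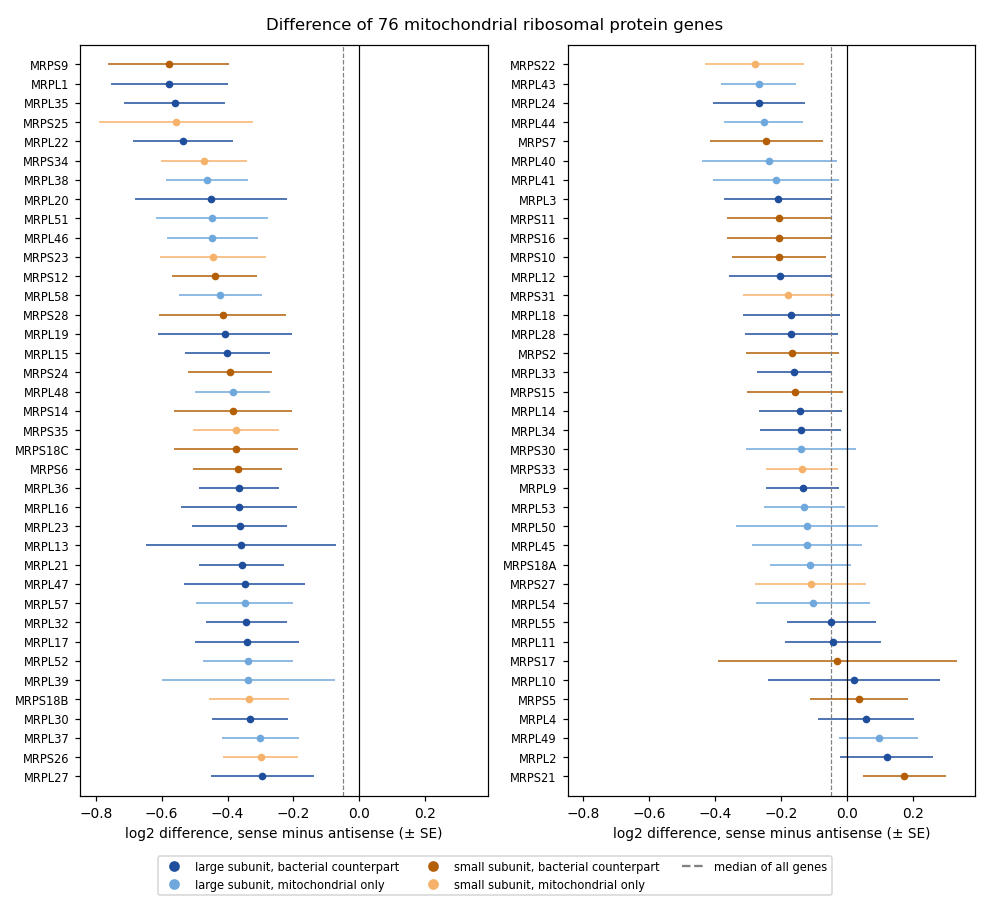
Log2 difference, sense minus antisense, of each of the 76 protein-coding genes by its brightest feature, with bars of ± 1 SE. Points are coloured by subunit and by whether the protein has a bacterial counterpart. The solid line is 0, and the dashed line is the median of all genes (-0.05). All but 6 genes lie left of 0, from MRPS9 at -0.58 to MRPS21 at 0.17.

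Not all samples took part equally. Over the 76 genes, the median deviation from a gene's mean of all 8 samples was -0.02, -0.07, -0.07 and -0.42 in sense 1 to 4. It was 0.11, -0.02, 0.25 and 0.21 in antisense 1 to 4. Sense 4 was thus far below every other sample, and antisense 2 lay level with sense 1. Over all genes these medians lay between -0.04 and 0.06 in every sample. In sense 4 the lowest of 8 readings was found for 52 of the 76 genes (68.4%), and the highest for 38 genes in antisense 3. The matching shares of all or of equally bright genes are not given here, so these counts are not read as a trait of the members. Without sense 4 the median difference of the members was -0.20, against -0.03 for all genes, and 66 of 76 were negative. It was -0.22 without antisense 4 and -0.32 without antisense 2. Within the Cy3 samples the median was -0.21, with 63 genes negative, and within Cy5 it was -0.32, with 72 negative. In both dyes 80.3% of the members were negative, against 37.6% of all genes.

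**Figure D2:**
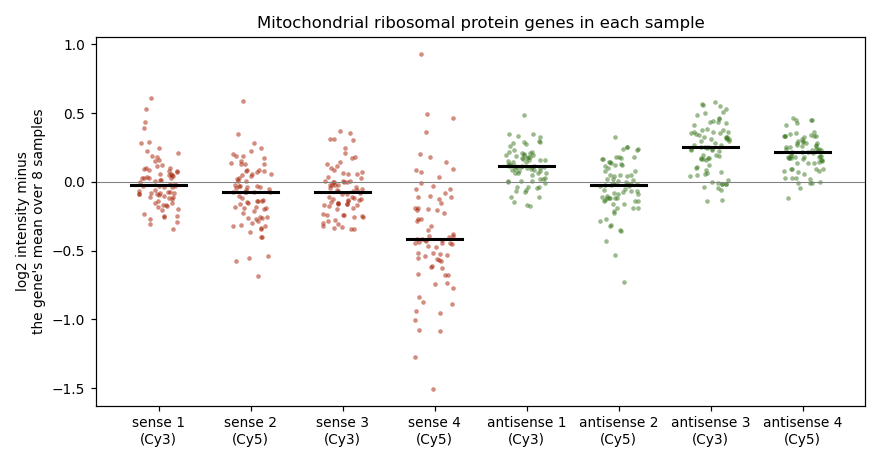
Log2 intensity of the 76 genes in each of the 8 samples, as the deviation from each gene's mean over the samples. Points are genes and black bars are medians. The bar of sense 4 is at -0.42 and those of antisense 3 and 4 are at 0.25 and 0.21, while antisense 2, at -0.02, lies level with sense 1.

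Both the brightest and the dimmest features were lower in sense as a whole, and most members are bright. All genes were sorted into deciles by mean intensity. The dimmest decile, which holds 0 members, had the most negative median, -0.30. In the brightest 2 deciles lay 59 of the 76 members. The 2693 genes there had a median difference of -0.14, with 75.2% negative. The 59 members among them had a median of -0.33, and 56 of them were negative. An unadjusted p under 0.05 in limma with sense lower was found for 40.7% of these members, against 15.3% of all genes there. Quantile normalization, which gives every sample the same distribution of values, brought the medians of the brightest 2 deciles to -0.04 for all genes and -0.20 for the members. Over all 76 members it left a median of -0.19, with 66 negative. After it the median of all genes was -0.01. In all, 60 members (78.9%) lay below the median of their own decile. The part of brightness in the size of the difference was otherwise not tested.

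**Figure D3:**
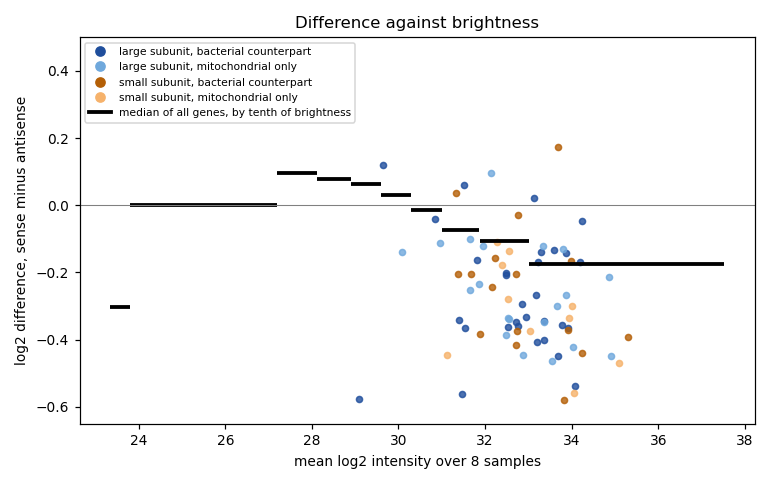
Log2 difference, sense minus antisense, against mean log2 intensity over the 8 samples. Points are the 76 genes, coloured as before by subunit, and black bars are the medians of all genes in each decile of brightness. The bar of the dimmest decile is at -0.30. The bars then descend from 0.10 in the third decile to -0.17 in the brightest, and 60 of the 76 points lie below their bar.

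In 16 of the 76 genes the sense and antisense samples did not overlap, all with sense lower (21.1%, against 3.5% of all genes). The reverse was found for 0 members, against 3.36% of all genes. In the brightest 2 deciles, 14 of 59 members were lower without overlap (23.7%), against 7.54% of all genes there. The 12 of these genes with the smallest p come from both subunits.

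MRPL38 lies in the central protuberance of the large subunit and has no bacterial counterpart. Its log2 intensity was 33.25, 33.37, 33.21 and 33.45 in sense 1 to 4. In antisense 1 to 4 it was 33.74, 33.60, 33.91 and 33.89. The groups were 0.15 apart at their nearest, between sense 4 and antisense 2, and the difference of -0.46 (SE 0.12) was a 1.38-fold lower level in sense, with an adjusted p of 0.25. MRPL35, a large-subunit protein with a bacterial counterpart, read 31.21, 31.43, 31.23 and 30.85 in sense and 31.68, 31.51, 31.89 and 31.89 in antisense. Sense 4 was lowest, and the difference was -0.56 (SE 0.15, adjusted p = 0.26). The small-subunit protein MRPS34, found only in mitochondria, read 34.87, 34.99, 34.92 and 34.69 in sense and 35.28, 35.22, 35.38 and 35.46 in antisense. Its samples were tight within each construct, with SDs of 0.13 and 0.11, and differed by -0.47 (SE 0.13, adjusted p = 0.26). Of the ETS-bearing genes printed above, MRPS34 is the one whose constructs did not overlap, while those of MRPL48, MRPL58, MRPS23 and MRPS21 did. MRPS12, a protein of the decoding centre, read 34.07, 34.21, 33.98 and 33.80 in sense and 34.52, 34.38, 34.40 and 34.51 in antisense. Sense 4 was again lowest, and the difference was nearly equal within Cy3 (-0.44) and within Cy5 (-0.44).

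MRPS24, the counterpart of bacterial S3, differed by -0.39 (SE 0.13), although sense 4 was the highest sense sample, at 35.28 against 35.01 to 35.05 in the other 3. MRPL32 joins the large subunit after a mitochondrial protease has trimmed it. It read 33.26, 33.11, 33.22 and 33.22 in sense and 33.51, 33.30, 33.74 and 33.63 in antisense, a difference of -0.34 (SE 0.12). MRPL30 varied least among the sense samples, from 32.73 to 32.83, and read 32.94 to 33.26 in antisense (difference -0.33, SE 0.11). MRPS35 differed by -0.37, MRPS6 by -0.37 and MRPS26 by -0.30, all small-subunit proteins. The large-subunit proteins MRPL37 and MRPL23, the second at the exit of the peptide tunnel, differed by -0.30 and -0.36, the second by -0.23 without sense 4. The gap between the constructs, from the highest sense to the lowest antisense sample, ranged among the 12 from 0.009 in MRPS35 to 0.23 in MRPS34.

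**Figure D4:**
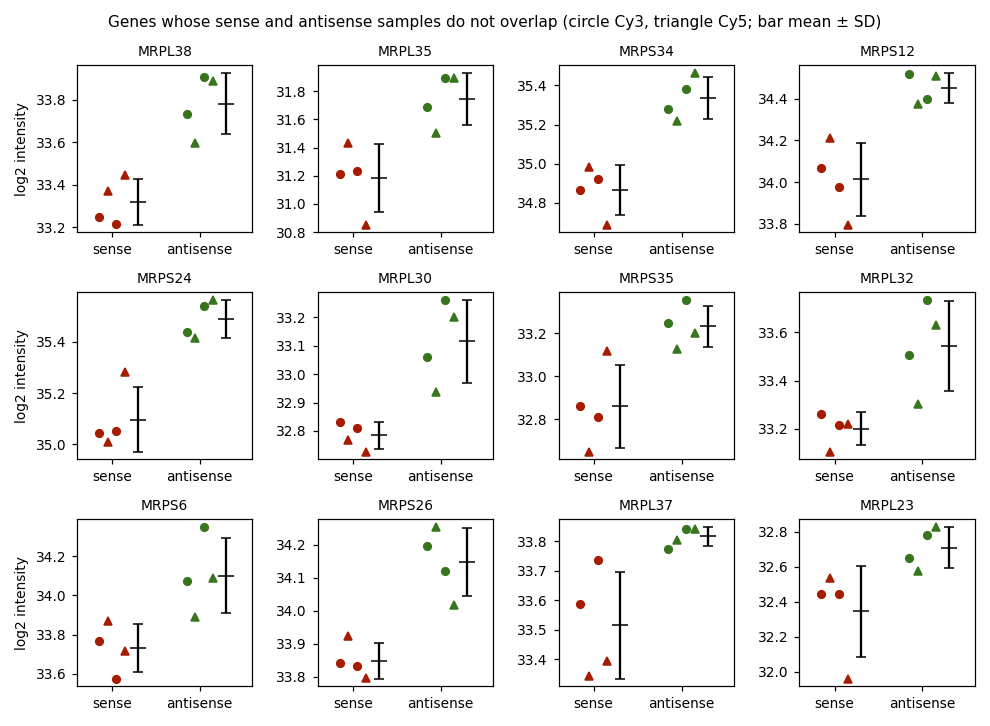
Log2 intensity of the 12 genes with the smallest p among those whose sense (red) and antisense (green) samples do not overlap. Circles are Cy3 samples, triangles are Cy5 samples, and black bars are means ± SD of 4 samples. Axes differ between panels and do not start at 0. Every antisense point lies above every sense point, by 0.23 in MRPS34 and by 0.009 in MRPS35.

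The largest differences by size depended in part on single samples. Of the 76 genes, 5 were at least 1.4-fold lower in sense, which is the size filter of the submitters: MRPS9, MRPL1, MRPL35, MRPS25 and MRPL22. The share of all genes at that size is not given here, so the count is not read as a trait of the members. The lower quartile of the difference was -0.38 in the members and -0.23 over all genes. Without sense 4 none of the 5 reached 1.4-fold, at -0.45, -0.46, -0.45, -0.31 and -0.47. In the 3 against 3 samples described below, MRPS9, MRPL35 and MRPL22 did, at -0.58, -0.53 and -0.57. MRPL1 and MRPS25 did not, at -0.46 and -0.43. MRPS9, the counterpart of bacterial S9, read 33.73, 33.78, 33.53 and 33.07 in sense and 34.14, 33.65, 34.40 and 34.23 in antisense. Here antisense 2 lay within the sense range, and the difference was -0.58 (SE 0.18, adjusted p = 0.28). MRPL1 forms the stalk next to which spent tRNA leaves the ribosome. It read 29.25, 28.40, 29.40 and 28.15 in sense and 29.58, 29.08, 29.53 and 29.32 in antisense. Both Cy5 sense samples were low, so the difference was -0.92 within Cy5 and -0.23 within Cy3. MRPL22, which lines the peptide tunnel, differed by -0.54 (SE 0.15). MRPS25 differed by -0.56 (SE 0.23), where sense 4 stood at 33.06 and the remaining sense samples at 33.89 to 34.29. MRPL20 differed by -0.45 (SE 0.23), and by -0.20 without sense 4, which stood at 32.62 while every other sense sample was at 33.62 or above.

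By subunit the members were alike. The 50 proteins of the large subunit had a median difference of -0.28 with 46 negative, and the 26 of the small subunit one of -0.29 with 24 negative. The large subunit is counted here with MRPS30 and MRPS18A, which lie in it despite their symbols. Proteins with bacterial counterparts had medians of -0.31 (30 in the large subunit) and -0.22 (16 in the small). Those classed as particular to mitochondria, which here include MRPS18A and MRPS18B although they are related to bacterial S18, had medians of -0.26 (20 in the large subunit) and -0.32 (10 in the small, all negative). Around the exit of the peptide tunnel all 9 genes were negative, with a median of -0.34, and in the central protuberance all 7, with a median of -0.29. No list was tested against another.

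The stalk that recruits translation factors stood nearest to 0, with a median of -0.09 over its 4 genes. MRPL12, which also binds the mitochondrial RNA polymerase, read 32.56, 32.28, 32.65 and 32.002 in sense and 32.40, 32.71, 32.53 and 32.66 in antisense. Its Cy3 samples differed by 0.14 and its Cy5 samples by -0.54, and the joint difference was -0.20 (SE 0.15, adjusted p = 0.52). MRPL11 differed by -0.04 (SE 0.15), with antisense samples between 30.82 and 30.88 and sense samples between 30.42 and 31.23, and by 0.23 within Cy3. MRPL53 differed by -0.13 (SE 0.12) and by 0.01 after quantile normalization. MRPL10, which anchors the stalk, differed by 0.02 (SE 0.26). Its sense 4 sample read 34.07, above a range of 32.60 to 33.08 in sense 1 to 3, and without sense 4 the difference was -0.30.

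Bacterial S18 has 3 human relatives. MRPS18B and MRPS18C, of the small subunit, differed by -0.33 (SE 0.12) and -0.37 (SE 0.19). MRPS18A, of the large subunit, differed by -0.11 (SE 0.12) and by 0.08 within Cy3. In MRPS18B the constructs overlapped at 1 sample, sense 4 at 34.03 against 34.02 in antisense 1. MRPS18C, whose difference was -0.19 without antisense 4, overlapped more widely, since antisense 2 at 32.31 lay near the lowest sense sample, 32.21. None of the 3 passed the threshold, and differences between them were not tested.

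All 6 genes with a positive difference lay within 1.4 times their SE of 0. MRPS21, a small-subunit protein with a bacterial counterpart, read 33.85, 33.92, 33.71 and 33.56 in sense and 33.56, 33.45, 33.67 and 33.66 in antisense. The groups overlapped, and the difference was 0.17 (SE 0.13, adjusted p = 0.50). A second MRPS21 feature differed by 0.19. MRPL2, near the site of peptide bond formation, differed by 0.12 (SE 0.14), and MRPL49, found only in mitochondria, by 0.10 (SE 0.12). MRPL4, of the tunnel wall, differed by 0.06, with 0.38 within Cy3 and -0.26 within Cy5. MRPS5 differed by 0.04 and by -0.05 in the 3 against 3 samples described below. The 2 members without a protein product lay at 0.03 (MRPL20-AS1, SE 0.17) and 0.02 (MRPL42P5, SE 0.24). The antisense RNA read 29.04 to 29.71 in all 8 samples with no separation of the constructs.

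Features of the same gene mostly agreed in sign. Of 22 genes with more than 1 feature, 20 had the same sign in all, 16 negative and 4 positive, and the median span within a gene was 0.13. The exceptions were MRPS11 and MRPS10. In MRPS11 the features 24197 and 38224 differed by -0.21 and -0.31. Feature 22649, the dimmest of the 3 and annotated to another transcript record, differed by 0.51 (SE 0.22, adjusted p = 0.34). In MRPS10 the features differed by -0.20, -0.33 and 0.01. MRPL3 had the same sign but unequal sizes. Its dimmer feature 25649 read 31.18, 31.15, 31.15 and 30.96 in sense and 31.85, 31.16, 31.97 and 31.85 in antisense, a difference of -0.60 (SE 0.16), while its brightest feature differed by -0.21 (SE 0.16). Antisense 2 stood at the sense level on the first of these. The next brightest features of MRPL38, MRPL35, MRPL30 and MRPL52 differed by -0.14, -0.25, -0.07 and -0.07, against -0.46, -0.56, -0.33 and -0.34 for the brightest.

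The submitters left out 1 sample per construct, chosen by the coefficient of variation of the remaining 3, and the labels do not name it. The mean coefficient of variation was lowest without sense 4 (0.189, against 0.213 to 0.242) and without antisense 2 (0.119, against 0.166 to 0.182), both of which stood apart above. Leaving out samples for their spread shrinks the spread within constructs on which the p-values rest, and the fit then called 1066 features in place of 17. The adjusted p-values of this subset are therefore too small. On the other 6 samples (3 against 3), limma placed 14 of the 105 member features past the threshold, all lower in sense (13.3%, against 2.6% of all features). These were features of MRPL3, MRPL38, MRPL22, MRPL35, MRPL32, MRPL48, MRPL58, MRPS9, MRPS12, MRPS18B, MRPS23, MRPS24, MRPS34 and MRPS35. The smallest adjusted p was 0.014, for MRPL3 feature 25649 at -0.73. SAM (significance analysis of microarrays), the method of the submitters, was run on the same samples at a false discovery rate of 10.1% with the 1.4-fold filter. It called 5 member features, all lower (4.76%, against 1.77% of all features lower and 6.18% in either direction), in MRPL3, MRPS9, MRPL22, MRPL38 and MRPS23. Sense 4 and antisense 2 both carried Cy5, so a fit of the Cy3 samples (2 against 2) leaves them out too. Its count is read with the same caution. Within Cy3 limma called 17 member features, all lower (16.2%, against 6.48% of all features lower and 5.03% higher). Within Cy5 it called 0 member features and 4 features in all, and 1 member feature had an unadjusted p under 0.05. The median difference of the 76 genes in the 3 against 3 samples was -0.24, against -0.03 over all genes, and with quantile normalization in these samples 1 member feature passed.

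Members with and without a promoter motif were both lower. The 29 genes with the ETS core had a median difference of -0.29 and the 39 without it one of -0.24. With the YY1 letters the median was -0.34 (12 genes, all negative), and without them -0.25 (56 genes, 52 negative). For the GC box GGGCGG, bound by SP1, the order was the other way, with -0.22 in 42 genes and -0.33 in 26. These medians were not tested. Among the factors, GABPB1, the partner subunit of GABP, differed by -0.39 (SE 0.16), and by -0.16 within Cy3 and -0.62 within Cy5. GABPA, its DNA-binding subunit, differed by -0.12 (SE 0.16), YY1 by 0.05 (SE 0.19) and NRF1 by -0.05 (SE 0.20), and each of these 3 had opposite signs in the 2 dyes. None of the 4 passed the threshold.

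Many members start back to back with another gene. Of 68 with a listed start, 18 (26.5%) had a protein-coding neighbour starting on the opposite strand within 1000 bases upstream, against 12.7% of measured genes. MRPL46 and MRPS11, 320 bases apart on chromosome 15, are each other's neighbour and differed by -0.45 and -0.21. Of the other neighbours 14 were measured, and these had a median difference of -0.05 with 9 negative. Their 14 mitochondrial ribosomal partners had a median of -0.31 with 13 negative. The median of all genes was also -0.05, and neighbours and members were not matched for brightness. The measured pairs that follow are named here after their values were seen. Among those left out are MITD1, 126 bases from MRPL30, at -0.04, and HELQ, 175 bases from MRPS18C, at 0.46 (SE 0.21). The largest neighbour difference, ZNF189 beside MRPL50 at 0.92 (SE 0.28), is also left out. The remaining neighbours left out lay on either side of 0. MRPL27 differed by -0.29 and EME1, a DNA repair nuclease subunit 45 bases away, by 0.25 (SE 0.19), or by 0.093 without antisense 4. MRPL49 differed by 0.10 and FAU, which encodes a ribosomal protein fused to a ubiquitin-like protein, by -0.16 (SE 0.16). MRPL57 and the mitotic gene SKA3, 106 bases apart, differed by -0.35 and -0.43 (SE 0.29), but SKA3 by -0.07 without sense 4. MRPS12 differed by -0.44 and SARS2, the mitochondrial seryl-tRNA synthetase 181 bases away, by -0.06 (SE 0.15). The difference within a pair was not tested. Members lie on 21 chromosomes, with 8 each on chromosomes 1, 2 and 17, and the median difference was negative on each.

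Other genes of mitochondrial gene expression were also mostly negative, at smaller medians, and 0 of them passed the threshold. The list of mitoribosomal proteins with other symbols counts OXA1L, the membrane insertase that docks the ribosome. Of its 5 measured genes 4 were negative (median -0.11), with CHCHD1 lowest at -0.36 (SE 0.17). OXA1L was its only positive gene, at 0.06 (SE 0.29). Mitoribosome assembly factors were negative for 21 of 25 (median -0.19). MTERF4, which brings an rRNA methyltransferase to the large subunit, differed by -0.56 (SE 0.14, adjusted p = 0.23), and the assembly GTPase MTG1 by 0.44 (SE 0.18). Translation factors were negative for 10 of 14 (median -0.18), from the elongation factor TSFM at -0.47 (SE 0.16) to the release factor MTRF1L at 0.54 (SE 0.19). Aminoacyl-tRNA synthetases and tRNA amidation genes were negative for 13 of 21 (median -0.08). GATC, an amidotransferase subunit, differed by -0.48 (SE 0.27), or by 0.17 as the median over its features, and VARS2, the valyl-tRNA synthetase, by 0.16 (SE 0.13).

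Genes for mitochondrial DNA and its transcription were negative for 11 of 16 (median -0.12), from the elongation factor TEFM at -0.54 (SE 0.29) to the RNase PNPT1 at 0.17 (SE 0.17). Without sense 4, TEFM differed by -0.18 and PNPT1 by 0.31, and without sense 3 PNPT1 differed by 0.07. Protein import genes were negative for 18 of 24 (median -0.12), from TIMM8A at -0.43 (SE 0.17) to PAM16 at 0.18 (SE 0.13). The regulators were negative for 6 of 10 (median -0.09), with MYC at 0.19 (SE 0.22). Without sense 4 the differences of GATC, TIMM8A and MYC were -0.15, -0.24 and 0.036. For comparison, 62 of 75 cytosolic ribosomal proteins and 65 of 76 subunits of the respiratory chain and ATP synthase were negative, with medians of -0.12 and -0.19. These shares were 82.7% and 85.5%, near the 82.0% of all genes in the brightest decile, whose median was -0.17. After quantile normalization the medians of the cytosolic and respiratory lists were 0.03 and -0.08. The median of the mitochondrial ribosomal proteins was then -0.19, next to -0.18 for the assembly factors, -0.16 for the regulators and -0.14 for the translation factors. It was between -0.07 and 0.005 for the synthetases, the mitochondrial DNA genes, the import genes and the mitoribosomal proteins with other symbols. The lists were described by counts and medians only, and no list is shown to differ from another.

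**Figure D5:**
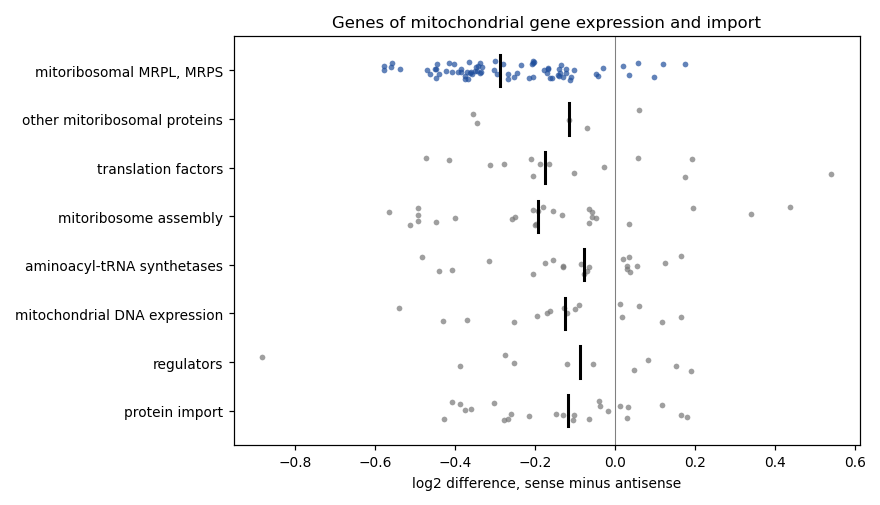
Log2 difference, sense minus antisense, of the mitochondrial ribosomal protein genes (blue, 76 genes) and of 7 other lists of mitochondrial gene expression and import (grey). Points are genes by their brightest feature and black bars are medians. The bar of the 76 genes is at -0.29 and those of the other lists lie between -0.19 and -0.08. The leftmost point, a regulator at -0.88, is PPARGC1A, which lay under the detection limits in both constructs.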

How the data were processed

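RNA of 8 samples was labelled with Cy3 or Cy5 and hybridised to Agilent arrays, with images processed in Agilent Feature Extraction 9.5 per the submitters' processing notes. The deposited values are linear intensity values that the authors scaled between samples by the 40% trimmed mean, per the design text. Per the same text, the authors kept features that all or no samples of a construct detected. How background and dye were corrected is not stated in the sources used. The absolute scale is unknown. Of 45015 features, 25094 had values in all samples. Precision is limited by the number of arrays.

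Groups follow the insert orientation in the titles. Log2 values were fitted with limma 3.58.1 in R 4.3.3 (construct and dye, eBayes with trend, Benjamini-Hochberg adjustment over all features, all adjusted p-values two-sided). Detection limits were inferred from the deposited filter. All 105 member features lay above them. Symbols are those of the platform annotation, and a gene ID match to RefSeq updated 0 of them. The fit was tested on simulated data. The members and lists were chosen with earlier results of these data known. Genes were named by rules of size, p, lack of overlap, disagreement between features, stalk and S18 membership, and the largest difference per direction in each other list. Those with printed promoters, the motif factors and the head-to-head pairs were added after their values were seen. The alternatives are in the closing section.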

Additional observations from a re-analysis of the deposited data

Results flagged for a closer look

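In a group of 4 samples, a sample was marked when its gap to the nearest other sample, as a share of the group's range, exceeded Dixon's critical value. Of 126 groups examined, 8 were marked, and chance marks about 1 in 20. Sense 4 was marked for MRPS24, at 35.283 with the other sense samples at 35.01 to 35.05, for MRPL23, at 31.961 with the others at 32.44 to 32.53, and for GATC, at 28.311 with the others at 29.65 to 29.86. Antisense 2 was marked for MRPL53, at 34.122 with the others at 33.74 to 33.80, for GATC, at 29.579 with the others at 29.97 to 30.04, for PNPT1, at 31.048 with the others at 31.41 to 31.44, and for SKA3, at 30.433 with the others at 30.88 to 30.96. Sense 2 was marked for NRF1, at 26.422 with the others at 26.92 to 27.00. All values are log2 intensity. Sense 4 and antisense 2 made up 7 of the 8.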

How the results depend on the processing

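Under 22 alternatives, 54 of the 70 negative member genes were negative in each. Every alternative gave a negative median of the 76 genes, from -0.34 to -0.14, and 62 to 72 negative genes. Leaving out 1 sample gave medians of -0.34 to -0.20, 66 to 71 negative genes, 4 to 20 called features and 0 called members. The count of called features was 17. It was 10 without a mean-variance trend, 1 among detected features only (where 0 members passed), 2888 within Cy3, 4 within Cy5, 1066 in the 3 against 3 samples, 6 with an offset of 50 intensity units and 4556 with sample weights. It was 1550 by SAM. Chosen after seeing the data, quantile normalization of the 3 against 3 samples gave 48, cyclic loess 10, and samples whose columns share a median as a random block 7. With the replicate number as a block it was 7, with 0 members, and no member's call changed. Same-numbered samples share only a number (r of their deviations -0.11 to 0.285), and 1 of 4 sense samples correlated best with its own number. Member features called were 0 in limma (33 at an unadjusted p under 0.05), 17 within Cy3, 14 in the 3 against 3 samples, 28 with sample weights (27 lower, 25.7% against 9.66% of all features, and 1 higher; 18.2% of all features in either direction), 5 by SAM and 1 with quantile normalization of the 3 against 3 samples. By the brightest feature these were 15, 13 and 25 genes within Cy3, in the 3 against 3 samples and with sample weights. The matching shares of all genes are not given here, so these gene counts are not read as a trait of the members. By feature the shares lower were 16.2% against 6.48% within Cy3 and 13.3% against 2.6% in the 3 against 3 samples. With the detected features only, without the dye term and in the other alternatives, 0 members passed. Some named genes had the opposite sign under an alternative, and the cause was not tested. Within Cy5 the sign turned for MRPL49 (-0.036), MRPL4 (-0.26), MRPS5 (-0.053), PNPT1 (-0.19), MYC (-0.043), FAU (0.0080) and MRPL42P5 (-0.24). With median centring the sign turned for MRPS5 (-0.0067), MRPL10 (-0.021), MRPL20-AS1 (-0.012) and MRPL42P5 (-0.019). In the 3 against 3 samples the sign turned for MRPS5 (-0.048), MRPL10 (-0.20), MRPL11 (0.077), OXA1L (-0.21), YY1 (-0.20) and MRPL42P5 (-0.064). With quantile normalization of those the sign turned for MRPS5 (-0.023), MRPL10 (-0.096), MRPL11 (0.095), MRPL12 (0.058), OXA1L (-0.15), YY1 (-0.11) and MRPL42P5 (-0.14). Within Cy3 the sign turned for MRPL10 (-0.093), MRPL11 (0.23), MRPL12 (0.14), MRPS18A (0.078), OXA1L (-0.0014), GABPA (0.084), YY1 (-0.20), NRF1 (0.22) and SARS2 (0.052). With sample weights the sign turned for MRPL10 (-0.15), MRPL11 (0.23), MRPL12 (0.011), OXA1L (-0.16), GABPA (0.020), YY1 (-0.12) and NRF1 (0.12). With quantile normalization the sign turned for MRPL53 (0.0084), MRPL20-AS1 (-0.024) and MRPL42P5 (-0.030). With cyclic loess the sign turned for MRPL53 (0.0042), FAU (0.033), MRPL20-AS1 (-0.018) and MRPL42P5 (-0.076). As the median over its features the sign turned for GATC (0.17). Leaving out 1 sample turned the sign for MRPL4 (-0.037 to 0.14), MRPS5 (-0.079 to 0.19), MRPL10 (-0.30 to 0.29), MRPL11 (-0.15 to 0.055), OXA1L (-0.29 to 0.39), YY1 (-0.18 to 0.18), NRF1 (-0.18 to 0.10), SARS2 (-0.14 to 0.055), MRPL20-AS1 (-0.10 to 0.16) and MRPL42P5 (-0.13 to 0.26).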
